A study of Bos taurus with 6 samples.

Results

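The genes examined here were those of the bovine major histocompatibility complex (MHC, called BoLA in cattle), their partners in antigen presentation, and CD274, which encodes the immune checkpoint ligand PD-L1. Members were taken by gene name: BOLA, every name starting with BOLA-, and B2M, TAP1, TAP2, TAPBP, CD274, NLRC5 and CIITA. The rule found 13 genes among the 18862 in the files, 7 BOLA genes and 6 others, while CIITA was not among the files' symbols and was not analysed here. RNA was measured in 6 libraries of 8-cell embryos made by in vitro fertilization, 3 of the control group and 3 of embryos cultured with 200 pmol/L GSKA, an inhibitor of lactate dehydrogenase A that the study used to lower histone lactylation. Both groups grew in the same culture medium with an equal amount of the solvent DMSO, and the inhibitor was present continuously after fertilization. Oocytes came from slaughterhouse ovaries, cumulus cells were stripped by pipetting and the zona pellucida was removed before lysis. The labels give the cell type as embryo and the tissue field as female, while the parents' breed, age and genotype and the number of embryos in a library are not stated in the sources at hand. The study describes its replicates as biological, without saying what separated them, and the p-values speak only to the spread among these libraries. Each library is 1 sample of embryo RNA, so fewer transcripts per cell and fewer cells cannot be told apart.

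Class I MHC molecules are made of a polymorphic heavy chain and the light chain beta-2-microglobulin (B2M), and they carry peptides that the TAP1 and TAP2 transporter moves into the endoplasmic reticulum, where tapasin (TAPBP) helps to load them. Class II molecules are pairs of an alpha and a beta chain, loaded with peptide by the DM heterodimer, and are normally made by professional antigen-presenting cells under the regulator CIITA, while NLRC5 is the corresponding regulator of class I genes. Early mammalian embryos are known for low classical MHC expression, and PD-L1 is best known for restraining T cells through the receptor PD-1 and is expressed by trophoblast at the maternal interface in humans. No source used here names the genome build. In the coordinates of the files 10 of the 13 members lay on chromosome 23. Those were 7 genes from 7072118 to 7484202, BOLA-DQB alone from 25607502 to 25622150, and BOLA-NC1 and BOLA from 28548781 to 28724399. CD274 lay on chromosome 8 from 39246075 to 39263677, B2M on chromosome 10 from 103116503 to 103123174 and NLRC5 on chromosome 18 from 25044850 to 25102326.

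Expression was given as FPKM (the fragments on a gene, scaled to its length and to all mapped fragments). No counts came with these values, which leaves the libraries' depth unknown and allows no counting error. Summed FPKM ranged from 497035 to 581839 and genes above 0 from 14295 to 15370 per library. Mitochondrial genes held 13.2% of FPKM in control replicate 1 and 5.31% to 7.26% in the other libraries. The embryo label fitted its markers, with the 12 oocyte and early embryo genes all above 0 in every library and summing to 2276 to 3155 FPKM in control embryos against 3123 to 3969 FPKM with GSKA. Of these genes KHDC3L, part of the maternal subcortical complex, was called higher, at 47.7, 67.2 and 81.0 FPKM in control embryos against 206, 184 and 148 FPKM with GSKA (adjusted p = 0.0348 from limma), and H1-8, GDF9, ZP2 and ZP4 lay higher without overlap and were not called. Differences were tested on log2(FPKM + 1) by limma, with a variance trend over intensity, across the 10654 genes with at least 1 FPKM in at least 3 libraries, adjusted by the Benjamini-Hochberg method. The words rose and fell stand for an adjusted p under 0.05. The group was chosen by earlier results of the same contrast, in which the FPKM of CD274 and BOLA-DQB had differed. The differences of these genes are therefore given as a description with no test.

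In control embryos the light chain B2M was by far the most abundant member, at 95.5 ± 23.5 FPKM (SD, n = 3 libraries), a level above 95.1% of the genes in the files. BOLA-DQB came next at 7.18, 16.3 and 14.2 FPKM, and CD274 followed at 4.10 ± 0.952 FPKM (SD, n = 3). The ranges of B2M and BOLA-DQB did not overlap, nor did those of BOLA-DQB and CD274. From CD274 downward the order of the means was BOLA-DMA, BOLA-NC1, TAPBP, BOLA, NLRC5, TAP1, BOLA-DMB, BOLA-DYB, TAP2 and BOLA-DYA, and each overlapped the next. Members further apart in the order could still be separate, as BOLA-DMA (1.18 to 3.08 FPKM) was from NLRC5 (0.238 to 1.16 FPKM). Of the 13 members, 7 averaged under 1 FPKM in the controls, and 7 were above 0 in all 6 libraries.

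**Figure D1:**
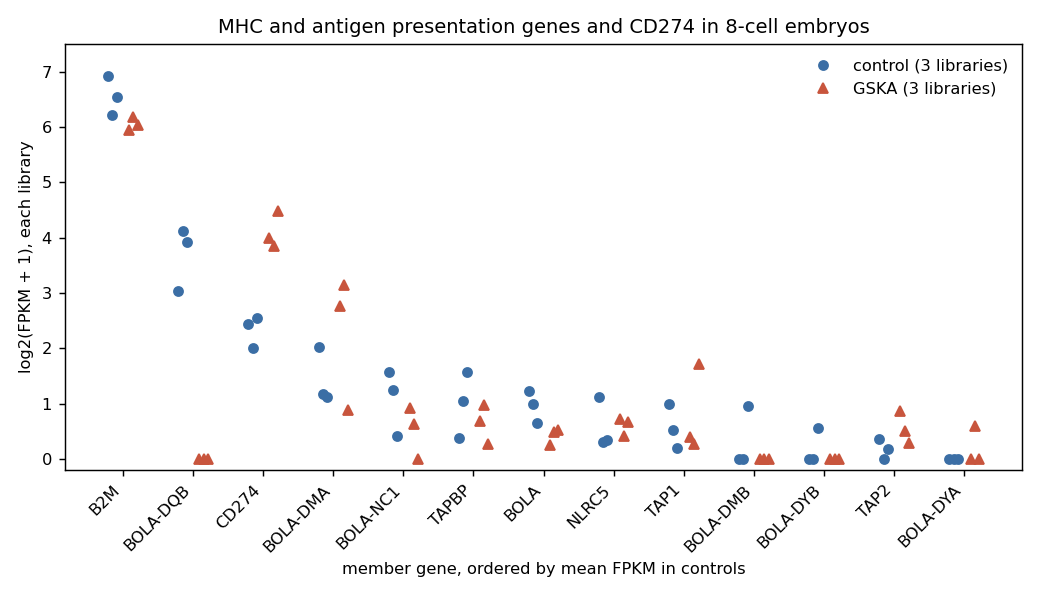
Level of each of the 13 member genes in each of the 6 libraries, as log2(FPKM + 1), with controls as circles and GSKA libraries as triangles. CD274 separates upward and BOLA-DQB downward in the GSKA group, B2M stays at the top, and most other members lie below 1 FPKM, which is 1 on this axis.

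Only 4 of the 13 members passed the filter on low values, namely B2M, BOLA-DQB, CD274 and BOLA-DMA. BOLA-DQB passed it through the controls alone, so that it had to differ once it was tested. Over all 10654 tested genes, 38 were called in either direction, or 0.357%, of which 24 were higher (0.225%) and 14 lower (0.131%) in the GSKA group. After median scaling the split was 7 higher and 14 lower. Of the 4 tested members 1 was called higher (CD274) and 1 lower (BOLA-DQB), which is the choice that brought them here and carries no further information.

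CD274 stood at 4.44, 3.02 and 4.83 FPKM in control replicates 1, 2 and 3. GSKA replicates 1, 2 and 3 had 14.9, 13.4 and 21.4 FPKM. Every GSKA library lay above every control, and the lowest GSKA value was 2.77 times the highest control value. The mean was 16.6 ± 4.28 FPKM with GSKA (SD, n = 3), 4.04 times that of the controls, and the log2 fold change on the log2(FPKM + 1) scale was 1.78 (standard error 0.338). The coefficient of variation was similar in both groups, 23.2% in the controls and 25.9% after GSKA. With each library left out in turn the log2 fold change lay between 1.59 and 1.91. Without control replicate 1, the library with the high mitochondrial share, it was 1.83. CD274 was chosen for this difference, so these figures describe it and are no sign of stability.

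**Figure D2:**
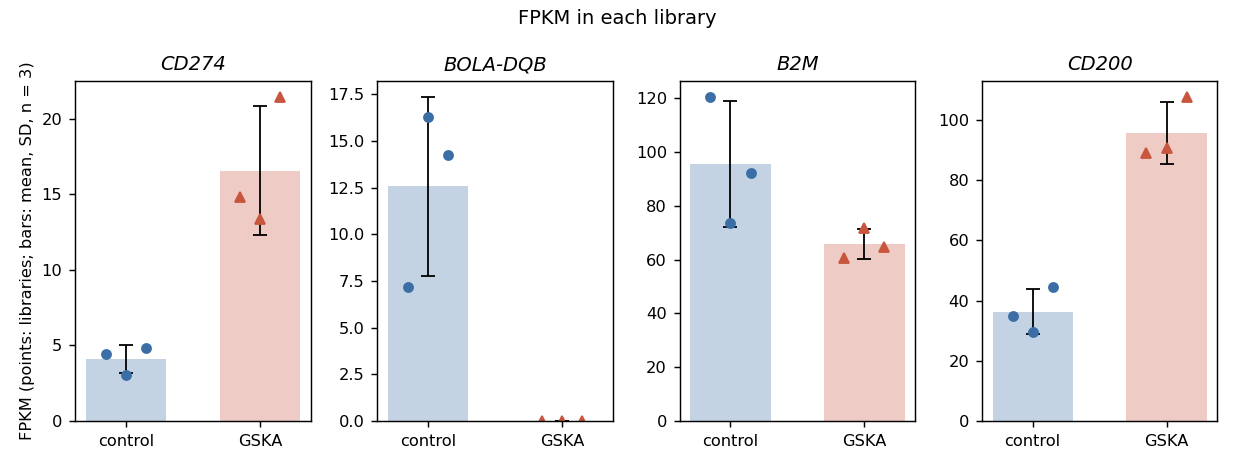
FPKM of CD274, BOLA-DQB, B2M and CD200 in each library (points), with bars for the group mean and whiskers for the SD (n = 3), each panel on its own linear axis from 0. CD274 and CD200 are higher in each GSKA library than in each control, BOLA-DQB is listed at 0 in the 3 GSKA libraries, and B2M lies lower by a narrow gap.

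The genes that flank CD274 did not share this pattern. Its neighbour PDCD1LG2, which encodes the second PD-1 ligand PD-L2, had 0.377 FPKM in GSKA replicate 3 and was listed at 0 in the other 5 libraries. On the other side, PLGRKT, a plasminogen receptor, ranged from 0.289 to 1.29 FPKM in the controls and from 0.579 to 3.12 FPKM with GSKA. JAK2, the kinase that carries interferon-gamma signals, was at 1.59, 0.817 and 2.85 FPKM in control embryos against 1.67, 2.13 and 1.77 FPKM in the GSKA libraries. None of the 5 genes on either side had groups that did not overlap, where 14.0% of all genes in the files did. Of the 6 flanking genes that were tested none was called, with log2 fold changes from -0.43 for KIAA2026 to 0.28 for ERMP1 (adjusted p = 0.627 and 0.763 from limma).

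Among 34 checkpoint ligands and regulators of PD-L1 in the files, 26 were tested, 2 were called higher and none lower, and their median log2 fold change was 0.24 beside 0.09 for all tested genes. The 2 were CD274, known from the choice of the members, and CD200, a membrane glycoprotein that restrains myeloid cells through its receptor. CD200 (chromosome 1, 57126575 to 57147988) had 34.7, 29.7 and 44.3 FPKM in control embryos against 89.1, 90.6 and 108 FPKM with GSKA. The groups were far apart, with means of 36.2 ± 7.45 and 95.8 ± 10.2 FPKM (SD, n = 3), a 2.64-fold difference. Its log2 fold change was 1.39 (standard error 0.245, adjusted p = 0.0350 from limma). The call held under 7 of 17 alternatives, over which the adjusted p from limma ranged from 0.0195 to 0.234, and was lost with median scaling (0.0561). Leaving out control replicate 1 or 2 gave adjusted p = 0.0502 and 0.0623 from limma, and leaving out GSKA replicates 1, 2 and 3 in turn gave 0.168, 0.189 and 0.176.
The costimulatory ligands CD80 and CD86 did not exceed 1.62 FPKM in any library. NFKB1, the p50/p105 subunit of NF-kappa-B, was at 4.00, 5.20 and 4.53 FPKM in control embryos against 1.77, 1.56 and 1.53 FPKM with GSKA, and the log2 fold change of -1.08 did not pass (limma, adjusted p = 0.210). The ubiquitin ligase adaptors SPOP and BTRC, known to act on PD-L1 in human cells, had log2 fold changes of 0.65 and 0.67 (adjusted p = 0.298 and 0.313 from limma). CMTM6, which keeps PD-L1 at the cell surface in human cells, was at 30.8 ± 6.56 FPKM in control embryos against 39.0 ± 5.69 FPKM with GSKA (SD, n = 3, adjusted p = 0.617 from limma).

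BOLA-DQB, a beta chain of the class II DQ molecule, was at 7.18, 16.3 and 14.2 FPKM in control replicates 1, 2 and 3 and was listed at 0 in all 3 GSKA libraries. No fold can be given against a group listed at 0. Of the 18862 genes in the files, 76 (0.403%) were above 0 in every control and listed at 0 in every GSKA library, and 85 (0.451%) showed the opposite. BOLA-DQB was the only one of the 76 with at least 5 FPKM in every control, or 0.00530% of all genes in the files. BOLA-DQB was chosen for this same difference, so the share only describes it and adds no support. DQ genes are polymorphic and similar in sequence, so how fragments were divided among them is uncertain.
The 2 loci that follow BOLA-DQB along the chromosome have no symbol and share its annotation to the class II protein complex, and both were low. ENSBTAG00000013919 was above 0 in control replicate 2 alone (0.137 FPKM). ENSBTAG00000038397 was at 0, 1.13 and 0.797 FPKM in control embryos against 4.43, 0 and 0 FPKM with GSKA, so that its highest value came from the GSKA group. CD74, the invariant chain that accompanies class II molecules, reached at most 0.875 FPKM in any library.
Leukocytes are a usual source of class II transcripts. Of 15 leukocyte markers 12 were in the files, and their FPKM summed to 10.5 to 19.4 in the controls and 8.13 to 14.1 in the GSKA group. PTPRC, the pan-leukocyte CD45, was above 0 in GSKA replicate 2 alone (0.761 FPKM). The part of such cells in the BOLA-DQB values was not tested.

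**Figure D3:**
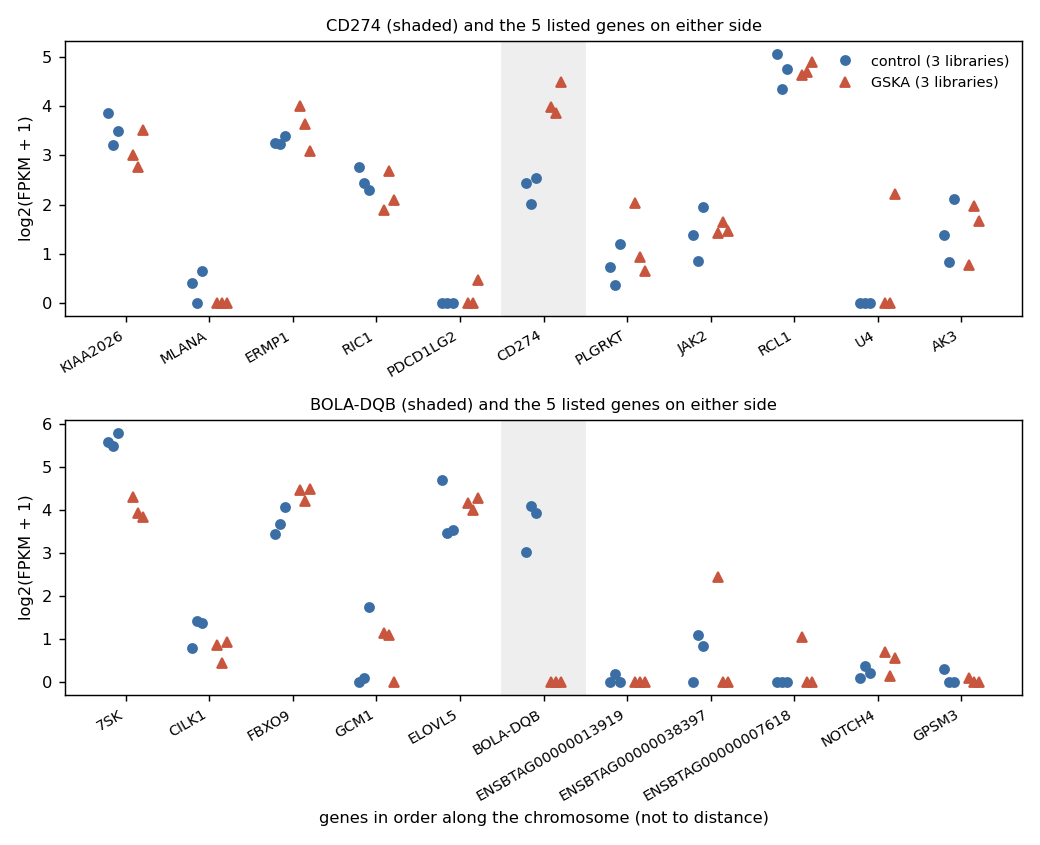
Levels of CD274 (top, shaded) and BOLA-DQB (bottom, shaded) and of the 5 listed genes on either side of each in chromosome order, as log2(FPKM + 1) in each library. The neighbours of CD274 overlap between groups, and around BOLA-DQB the 7SK locus is lower and FBXO9 higher in the GSKA libraries.

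Of the 10 flanking genes of BOLA-DQB, 2 had groups that did not overlap, near the 14.0% of all genes in the files. The 7SK locus fell from 48.7 ± 5.62 to 15.5 ± 2.84 FPKM (SD, n = 3), -1.59 on the log2 scale (limma, adjusted p = 0.0274), while FBXO9, an F-box protein of a ubiquitin ligase, had a log2 fold change of 0.66 and did not pass (adjusted p = 0.349). Many sequences similar to 7SK lie elsewhere in the genome, so the assignment of fragments to this locus is uncertain. ELOVL5, the nearest listed gene before BOLA-DQB, was at 25.2, 10.0 and 10.7 FPKM in control embryos against 17.1, 15.1 and 18.5 FPKM with GSKA.

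The remaining class II members were low. BOLA-DMA, the alpha chain of the DM peptide loader, was at 3.08, 1.26 and 1.18 FPKM in control embryos against 5.81, 7.81 and 0.843 FPKM with GSKA. Its 2 highest and its lowest value all came from the GSKA group, and the difference did not pass (log2 fold change 0.82, standard error 0.551, adjusted p = 0.559 from limma). Without GSKA replicate 3 the log2 fold change was 1.51 (adjusted p = 0.286 from limma). Its partner chain BOLA-DMB had 0.951 FPKM in control replicate 3 and was listed at 0 in the other 5 libraries. BOLA-DYB and BOLA-DYA, chains of a class II molecule found in ruminants, were each above 0 in 1 library, at 0.464 FPKM in control replicate 3 and at 0.510 FPKM in GSKA replicate 2. The DM pair was above 0 together in control replicate 3 alone, and the DY pair in no library.

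B2M was at 120, 73.8 and 92.3 FPKM in control replicates 1, 2 and 3, against 60.7, 71.7 and 64.6 FPKM with GSKA. The groups lay next to each other without overlap, at means of 95.5 ± 23.5 and 65.7 ± 5.57 FPKM (SD, n = 3), and the difference did not pass (log2 fold change -0.51, standard error 0.246, adjusted p = 0.394 from limma). Without control replicate 1 the log2 fold change was -0.33 (adjusted p = 0.581 from limma), and the spread was wider in the controls (coefficient of variation 24.6%) than in the GSKA group (8.48%).
A second locus of the same kind lies beside it. ENSBTAG00000048782, on chromosome 10 from 103095506 to 103103769, has no symbol in the files but is annotated, like B2M, to the MHC class I protein complex. In the files the order along the chromosome is PATL2, ENSBTAG00000048782, B2M, and in the RefSeq gene table (assembly ARS-UCD2.0) it is PATL2, B2M, LOC783680. Which of the pair RefSeq calls B2M was not settled, and the assignment of fragments between them is uncertain. ENSBTAG00000048782 was at 80.4, 49.2 and 67.2 FPKM in control embryos against 55.4, 61.6 and 48.4 FPKM with GSKA, and here the groups overlapped (log2 fold change -0.23, adjusted p = 0.746 from limma). Summed over both loci the levels were 201, 123 and 159 FPKM in control embryos against 116, 133 and 113 FPKM with GSKA, also with overlap (log2 fold change -0.39, adjusted p = 0.513 from limma).

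The class I heavy chains were much less abundant than the light chain, and they did not move in one direction. BOLA, a class I heavy chain, was at 1.35, 0.980 and 0.566 FPKM in control embryos against 0.195, 0.393 and 0.428 FPKM with GSKA, without overlap (exact permutation test, two-sided, unadjusted p = 0.1, the smallest that 3 libraries against 3 allow). This p follows from the lack of overlap and adds nothing to it. The same unadjusted exact permutation test gave p = 0.2 for TAP2, 0.3 for BOLA-NC1 and larger values for TAPBP, TAP1 and NLRC5. BOLA-NC1, a non-classical heavy chain, was at 1.96, 1.36 and 0.328 FPKM in control embryos against 0.889, 0.549 and 0 FPKM with GSKA, with overlap. Neither passed the filter on low values.
3 further class I genes lie outside the rule by the spelling of their names. BoLA, described in the files as class I A, was at 4.56, 3.00 and 1.94 FPKM in control embryos against 3.81, 7.17 and 9.87 FPKM with GSKA (log2 fold change 0.90, adjusted p = 0.370 from limma). JSP.1 was at 0.163, 1.05 and 0.118 FPKM in control embryos but listed at 0 after GSKA. MIC1, a stress-inducible class I-related gene, was at 1.95, 1.93 and 5.21 FPKM in control embryos against 0.674, 1.57 and 1.31 FPKM with GSKA (log2 fold change -0.81, adjusted p = 0.436 from limma). Summed over BOLA, BOLA-NC1, BoLA and JSP.1, heavy chain transcripts came to 8.04, 6.40 and 2.95 FPKM in control embryos against 4.89, 8.11 and 10.3 FPKM with GSKA. The lowest sum was that of control replicate 3 and the highest that of GSKA replicate 3, and the groups overlapped. Per length, B2M and its adjacent locus together exceeded these heavy chains 19.2 to 54.1 times in the controls and 11.0 to 23.7 times after GSKA. Class I heavy chain genes are similar to each other, so the split between them is uncertain.

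The peptide transporter and tapasin were near the lower limit of these data. TAP1 was at 0.990, 0.444 and 0.153 FPKM in control embryos against 0.323, 0.211 and 2.28 FPKM with GSKA, where GSKA replicate 3 held the highest value of any member that was not tested. TAP2 was at 0.283, 0 and 0.131 FPKM in control embryos against 0.811, 0.415 and 0.216 FPKM with GSKA. TAPBP was at 0.306, 1.06 and 1.95 FPKM in control embryos against 0.600, 0.961 and 0.199 FPKM with GSKA. The class I regulator NLRC5 was at 1.16, 0.238 and 0.262 FPKM in control embryos against 0.651, 0.338 and 0.592 FPKM in the GSKA libraries. The groups overlapped for each of these genes.
Leaving aside CD274 and BOLA-DQB, 2 of 11 members (18.2%) had groups that did not overlap, both lower after GSKA, where 14.0% of all genes in the files did, 8.76% higher and 5.26% lower. With only 2 of 11 genes, neither likeness to the background nor a difference from it can be stated, in either direction. Among tested genes alone, 12.9% were separated upward and 6.45% downward, 19.4% in all.

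Other genes of antigen presentation were taken from lists of known components. Of 21 genes of class I loading and peptide supply 14 were tested and none was called, with a median log2 fold change of 0.07. PSMB5, a catalytic subunit of the standard proteasome, was at 510, 537 and 595 FPKM in control embryos against 375, 380 and 398 FPKM with GSKA (log2 fold change -0.51, adjusted p = 0.272 from limma). The immunoproteasome subunits that replace such subunits in immune cells were far lower, with PSMB8 between 0.585 and 3.37 FPKM, PSMB9 between 1.66 and 10.8 FPKM, and PSMB10 at most 0.722 FPKM. PSME3, the nuclear proteasome activator, differed by 0.70 on the log2 scale (limma, adjusted p = 0.282). The chaperones that fold class I chains were present throughout, CALR at 14.7 to 24.9 FPKM, CANX at 17.9 to 38.6 FPKM and PDIA3 at 35.8 to 55.0 FPKM.
Of 12 genes of class II loading 7 were tested and none was called (median -0.02). LGMN, the lysosomal asparaginyl endopeptidase legumain, was at 36.5, 38.5 and 44.7 FPKM in control embryos against 11.8, 22.4 and 23.7 FPKM with GSKA, without overlap and without passing (log2 fold change -1.06, adjusted p = 0.149 from limma). IFI30, a lysosomal thiol reductase, differed by 0.92 on the log2 scale (limma, adjusted p = 0.394).
Of 16 transcription regulators of MHC genes in the files 14 were tested and none was called (median -0.20). The 2 with the smallest p went in opposite directions. RFXANK, a subunit of the RFX factor that binds MHC promoters, was at 1.63, 1.42 and 1.63 FPKM in control embryos against 3.95, 5.64 and 4.02 FPKM with GSKA (log2 fold change 1.10, adjusted p = 0.210 from limma), while CREB1, which binds the same promoters, was at 5.09, 7.48 and 16.8 FPKM in control embryos against 4.18, 3.16 and 1.19 FPKM with GSKA (log2 fold change -1.43, adjusted p = 0.209 from limma). NFYA, a subunit of the CCAAT-box factor NF-Y, differed by -0.52 on the log2 scale (limma, adjusted p = 0.386).

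**Figure D4:**
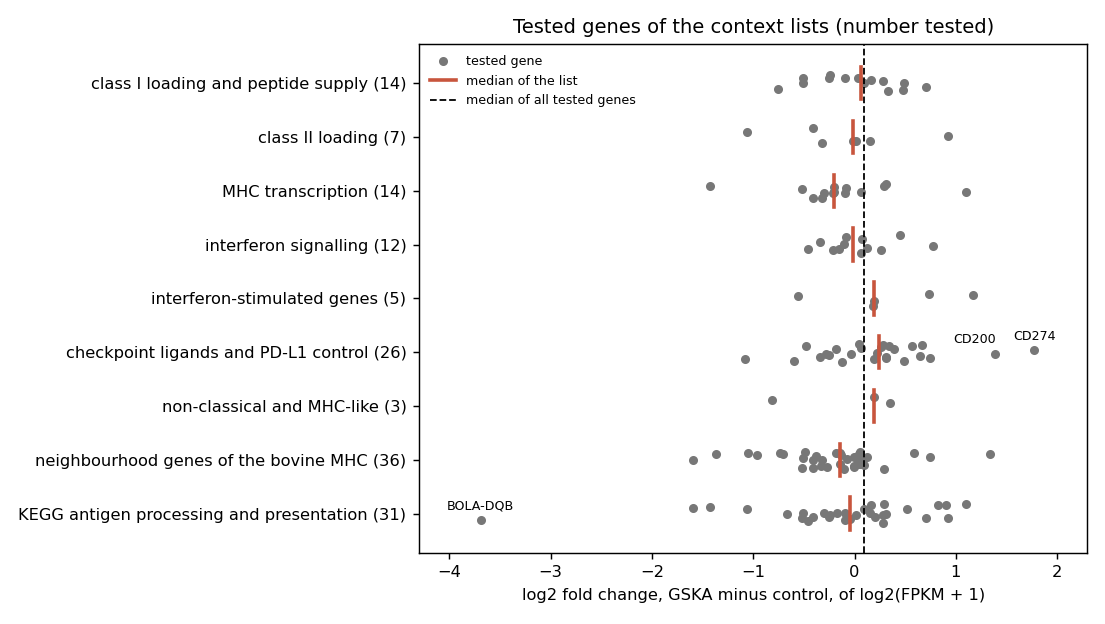
Log2 fold change (GSKA minus control, of log2(FPKM + 1)) of each tested gene in the 9 lists, with the number tested in brackets, the median of each list as a vertical bar and the median of all tested genes (0.09) as a dashed line. Medians lie between -0.20 and 0.24, and CD274, CD200 and BOLA-DQB are labelled as the genes that were called.

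No interferon signalling gene was called. Of 19 in the files 12 were tested, and none lay under an unadjusted p of 0.05 either (median -0.01, smallest adjusted p = 0.550 from limma), where 13.4% of all tested genes lay under that unadjusted threshold. Of the 12 tested, 2 had groups that did not overlap, STAT2 and IRF3, both lower with GSKA. Over all tested genes 19.4% did not overlap, 6.45% downward. The factor IRF3 was at 123 ± 19.4 FPKM in the control group and 96.1 ± 3.53 FPKM in the GSKA group (SD, n = 3). IRF1, through which interferon-gamma induces MHC and PD-L1 genes, was at 4.69 ± 1.16 and 4.37 ± 1.09 FPKM (SD, n = 3). The receptor chain IFNGR2 had 0.406 FPKM in GSKA replicate 1 and 0 in the other 5 libraries. Of 28 interferon-stimulated genes, 17 were in the files and 5 were tested, none of them called (median 0.19). ISG15 was at 0, 8.12 and 0 FPKM in control embryos against 3.07, 4.43 and 3.67 FPKM with GSKA, and IFI44 at 4.00 to 5.22 and 7.35 to 11.1 FPKM (log2 fold change 0.74, adjusted p = 0.367 from limma).
Of 14 non-classical and MHC-like genes 7 were in the files, and the 3 that were tested, PROCR, FCGRT and MIC1, were not called (median 0.19). Of 48 genes of the MHC region on chromosome 23 that have other functions, 36 were tested and none was called (median -0.14). The chaperone HSPA1A was at 56.1, 71.9 and 43.5 FPKM in control embryos against 12.0, 24.1 and 19.7 FPKM with GSKA (log2 fold change -1.59, adjusted p = 0.0524 from limma), and passed in 3 of 17 alternatives. Similar HSPA1 copies make its fragment assignment uncertain. The GTP-binding protein GNL1 had a log2 fold change of -1.05 and the nuclear membrane protein NRM one of -1.37 (adjusted p = 0.111 and 0.126 from limma). In the KEGG annotation of the files, 51 genes belong to antigen processing and presentation, of which 31 were tested, 1 was called lower and none higher. The 1 was BOLA-DQB itself.

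The genes whose levels followed CD274 most closely over the 6 libraries, by Pearson's r of log2(FPKM + 1), were the mitochondrial deubiquitinase USP30 (r = 0.997), the Integrator subunit INTS9 (0.993), HMGXB4 (0.992), RASSF8 (0.991) and SFT2D1 (0.991). SFT2D1, for example, averaged 77.1 FPKM in control embryos and 179 FPKM with GSKA, a difference that its likeness to CD274 brings with it. The genes closest to BOLA-DQB were CRIP1 (r = 0.998), OR4X16 (0.996), the kinase STK35 (0.996), NFKB1 (0.995) and BAMBI (0.990). These correlations rest on 6 libraries that share the group difference, and 263 of 9402 genes with a symbol had r above 0.9 with CD274 and 101 with BOLA-DQB. CRIP1 was at 1.76, 2.72 and 2.22 FPKM in control embryos but listed at 0 in the GSKA libraries.

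The summed markers of some other cell types lay apart between the groups. Of 12 cumulus and granulosa markers 10 were in the files, and their FPKM summed to 40.4 to 54.0 in the controls and 70.7 to 80.0 after GSKA. Most of it was STAR (20.1, 29.6 and 40.3 against 50.6, 50.6 and 43.5 FPKM) and TNFAIP6 (11.3, 4.31 and 6.96 against 16.6, 16.5 and 15.2 FPKM). Neither was called, and the other markers of this set overlapped between the groups, with INHA and INHBA listed at 0 in the GSKA libraries. Of 6 sperm markers 4 were in the files, summing to 0 to 0.872 FPKM and 5.35 to 7.76 FPKM. PRM1, TNP1 and ODF1 were listed at 0 in every control, and none of them was above 0 in all GSKA libraries. TNP2 was at 0, 0.872 and 0 FPKM in control embryos against 1.31, 5.13 and 3.14 FPKM with GSKA. Its groups did not overlap, and the difference did not pass (adjusted p = 0.138 from limma). The 7 endothelial and fibroblast markers summed to 4.11 to 5.06 FPKM and 8.48 to 10.0 FPKM. Among them the matrix proteoglycan DCN rose from 0, 0 and 1.18 FPKM to 5.49, 4.23 and 6.26 FPKM (adjusted p = 0.0452 from limma). The collagen COL1A1 went the other way without overlap and did not pass (adjusted p = 0.634 from limma). It was at 1.87, 1.23 and 1.25 FPKM in control embryos against 1.12, 0.437 and 0.794 FPKM with GSKA. The other genes of this set overlapped between the groups, and PECAM1 was listed at 0 in 5 libraries. The other sets overlapped between the groups. Of 6 markers of antigen-presenting cells 3 were in the files, with sums of 2.84 to 8.64 FPKM and 0.698 to 4.47 FPKM. The red blood cell markers, 2 of 5, summed to 5.95 to 12.8 FPKM and 1.47 to 6.40 FPKM, nearly all of it HBA, and the 5 trophectoderm markers to 9.36 to 10.7 FPKM and 8.08 to 12.3 FPKM. The part of these cell types in the levels of CD274, CD200 and BOLA-DQB was not tested.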

How the data were processed

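The authors deposited 1 FPKM value per gene and library, made with cutadapt 1.9, HISAT2 2.0.4 and StringTie 1.3.4d per the labels' processing notes. No source used here names the genome build. Low values did not fall on whole multiples of a read, since at most 2.42% of low genes shared a ratio between libraries (bins of 0.03 on the log2 scale), so depth is unknown and no count test was run. The authors' edgeR table (a fold, its log2 value, p and q per gene) was not used. Because FPKM needs a test on a log scale, limma 3.58.1 in R 4.3.3 was fitted to log2(FPKM + 1) with no covariate beside the group. It was tested on simulated data. The members and the 9 lists were chosen with earlier results of these data known. All 13 members matched the RefSeq table by Entrez gene ID. No sequence was used here.

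Genes named were every member, the 5 genes most like CD274 and BOLA-DQB, 5 neighbours on either side, and in each list those called, the 4 smallest p-values and the 2 highest levels, of which the text gives a part. Named for their role after their values were seen were CD74, CD80, CD86, CMTM6, PSMB8, PSMB9, PSMB10, CALR, CANX, PDIA3, IRF1, IFNGR2, BTRC, JSP.1 and IFITM3, together with the marker genes. The alternatives, 16 planned and 1 added after the data were seen (B2M summed with its adjacent locus), covered the pseudocount, filter, scaling, variance model, replicate block and each library left out.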

Additional observations from a re-analysis of the deposited data

How the results depend on the processing

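Of the 4 tested members 2 were called with FPKM as deposited, 0 with no filter on FPKM, and 1 after median scaling, quantile normalization, rescaling without mitochondrially encoded genes, a pseudocount of 0.1, no intensity trend or a replicate block. The count was 1 to 1 with each library left out. BOLA-DQB was called in 16 of 17 alternatives and CD274 in 4, and wherever 1 member was called it was BOLA-DQB. These members were chosen for this difference, so the counts are no sign of stability. Genes called over all genes numbered 38, against 21 after median scaling, 0 with no filter (1664 at an unadjusted p under 0.05 from limma), 7 without the intensity trend, 15 with a pseudocount of 0.1 and 19 with the replicate block, and 4 to 42 with each library left out. Only 1 of 3 same-numbered pairs had a correlation of deviations over 0.1, and 1 of 3 control libraries correlated best with its own number. Deviations from a mean of 3 libraries depend on one another, so these correlations do not settle whether the numbers pair the libraries. A shared origin of same-numbered libraries was not tested. No reported direction was reversed for a single gene followed through the alternatives. List medians changed sign for class I loading, class II loading, MHC transcription, interferon signalling, non-classical and MHC-like genes, and the KEGG annotation. That of MHC transcription, for example, ran from -0.32 to 0.10, and that of non-classical and MHC-like genes from -0.26 to 0.41. The medians of the other lists kept their sign. The log2 difference of BOLA-DQB ran from -1.77 with a pseudocount of 5 to -6.90 with 0.1, since a group listed at 0 has no fold, and that of CD274 from 1.23 to 1.99. Outside the members, 7SK was called in 10 of 17 alternatives (adjusted p from limma 0.0135 to 0.234), KHDC3L in 8 of 17 (0.0193 to 0.252) and DCN in 4 of 16 (0.0341 to 0.291). The 9 of 13 members below the filter had at most 2.28 FPKM and were left out of the main fit, which therefore says nothing about their differences.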

Other observations

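IFITM3, an interferon-induced membrane protein, is listed in the files at 2 loci on chromosome 29, and both were above 0 in every control and listed at 0 in every GSKA library, the pattern of BOLA-DQB at a lower level. The first was at 1.34, 1.35 and 0.494 FPKM in control replicates 1, 2 and 3, and the second at 0.670, 0.988 and 1.03 FPKM. They were chosen after their values were seen, from the 76 genes with this pattern, and as similar copies they are not independent of each other. Neither passed the filter on low values, so no test was made.

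ENSBTAG00000048049, a locus on chromosome 21 with no symbol in the files, is annotated to the class II protein complex, an annotation that the locus beside B2M also carries. Control replicates 1, 2 and 3 had 27.0, 76.2 and 41.3 FPKM and GSKA replicates 1, 2 and 3 had 32.1, 38.6 and 34.7 FPKM, so that both its highest and its lowest value came from control embryos (log2 fold change -0.32, adjusted p = 0.722 from limma).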
